A study of Anas platyrhynchos with 6 samples.

Results

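This account concerns the 150 duck ovary transcripts whose abundance followed that of ASPN most closely over 6 libraries. ASPN encodes asporin, a small leucine-rich proteoglycan of the extracellular matrix. The libraries came from Jinding ducks, a laying breed of Anas platyrhynchos, drawn from a half-sib family and aged 340 days. The 3 high libraries were from ducks with a laying rate above 99%, and the 3 low libraries from ducks with a rate below 85%; no agent or altered allele is named in the labels. Transcript abundance was read as FPKM, that is, fragments scaled for transcript length and library size.

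Members were chosen from these measurements. Of 41952 transcripts in the tables, 30690 carried accessions of protein-coding type (XM and NM). Apart from the ASPN row, XM_005025625.2, 10081 of them had a mean of 5 to 100 FPKM and at least 1 FPKM in every library. These moderately expressed transcripts were ranked by Pearson correlation with the ASPN row on the log2(FPKM + 1) scale, and the 150 highest, or 1.49% of those ranked, were kept. All 150 were therefore above the limit on low values by the rule itself. A gene symbol could be paired with 21 of the members and with 1225 of the ranked transcripts, so 129 members are known by accession alone. What the members share across libraries is how they were chosen, and it is described here without a test.

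Asporin belongs to the family of decorin, lumican and biglycan, secreted proteins with leucine-rich repeats that bind collagen fibrils. Asporin also binds transforming growth factor beta. In the ovary the fibroblasts of the stroma and of the follicle wall make much of the collagen and proteoglycan, and they lie among blood vessels, smooth muscle, leukocytes and follicles in a piece of whole tissue. In such bulk samples, fewer cells of a type and less RNA per cell cannot be told apart.

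The libraries were not equally spread. Summed FPKM ran from 622708 to 639135 in high and from 569606 to 605510 in low libraries, and 18968 to 19712 transcripts reached 1 FPKM in a library. Over the ranked transcripts the first principal component held 43.9% of the variance and ran from low 1, at -33.8, to low 3, at 38.3, with the other 4 libraries between -7.46 and 1.997. Low 1 and low 3 thus stood apart from the rest in opposite directions, and the deviations of ASPN, and with them the weight in each correlation below, were largest in these 2 libraries. Markers of ovarian follicles were present in every library: FSHR, the receptor for follicle-stimulating hormone, stood at 12.8 to 17.9 FPKM in high and 15.5 to 18.6 FPKM in low libraries, and GDF9, an oocyte growth factor, at 55.2 to 62.4 and 49.4 to 83.8 FPKM in the same order of groups.

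ASPN was at 49.8, 40.4 and 32.7 FPKM in the high ovaries and at 23.0, 41.9 and 67.1 FPKM in the low ovaries. The lowest and the highest value were both in the low group, and the high values lay between them. On the log2(FPKM + 1) scale ASPN spanned 1.503 over the libraries, with a standard deviation of 0.30 in high and 0.75 in low libraries. The members had the same outline. Low 1 was the lowest library for 150 of 150 members, and low 3 was the highest for 147, with high 1 highest for the other 3. Among all ranked transcripts low 1 was lowest for 21.5% and low 3 highest for 19.6%. Median deviations of the members from their own means were 0.13 (high 1), 0.011 (high 2) and -0.14 (high 3), against -0.47 (low 1), 0.042 (low 2) and 0.42 (low 3). Those of ASPN, in the same order of libraries, were 0.30, 0.0030 and -0.29, against -0.78, 0.053 and 0.72.

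**Figure D1:**
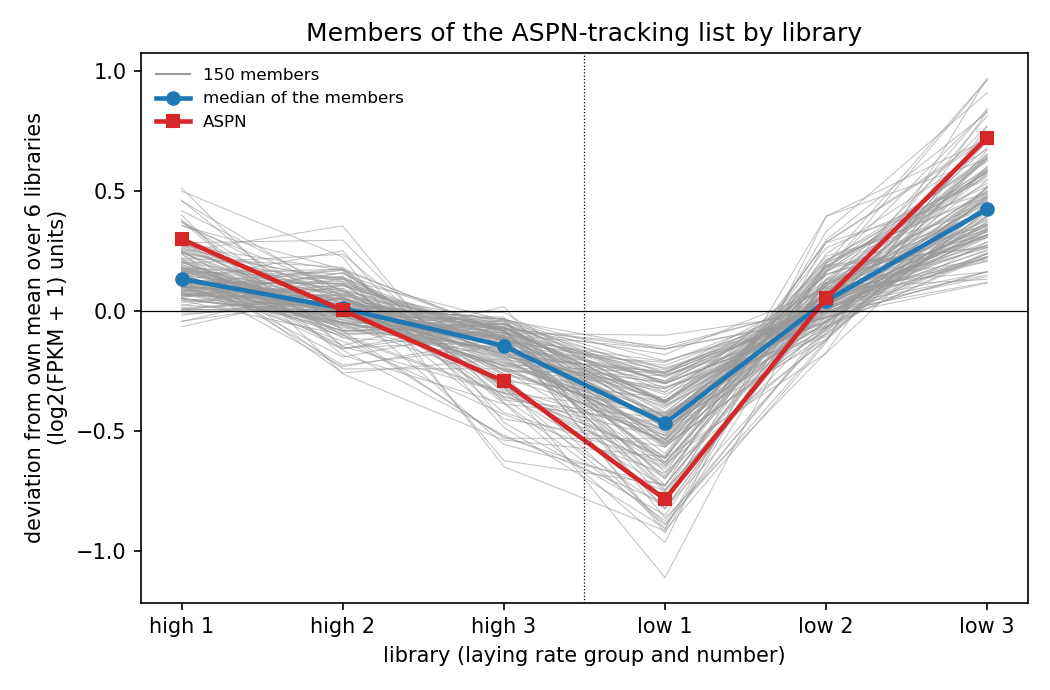
Each grey line is 1 of the 150 members, the blue line their median and the red line ASPN. The vertical axis is the deviation from the transcript's own mean over 6 libraries in log2(FPKM + 1) units, and the horizontal axis holds the 3 high and then the 3 low libraries; lines only join the values of a transcript. Low 1 is the lowest library for all 150 members and low 3 the highest for 147.

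The order of the 4 inner libraries was less uniform. The members showed 13 orders of the 6 libraries, and 41 of them had the order of ASPN, which was low 3, high 1, low 2, high 2, high 3 and low 1. Within the high group, high 3 was the lowest library for 133 members. Without low 1 and low 3, the 2 libraries farthest from the median of ASPN, the correlation with ASPN over the remaining 4 libraries was above 0 for all 150 members, with a median of 0.865 and a lowest value of 0.309. It was above 0.9 for 60 members. Over all ranked transcripts the median in those 4 libraries was -0.115, and 44.4% were above 0. Those 4 libraries were among the 6 used to choose the members, so the higher values of the members are no separate evidence of tracking. Ranked on those 4 libraries alone, 23 of the 150 members were again among the 150 highest, and with a single library left out in turn 68 to 103 were, fewest without low 1. The makeup of the list thus changes with the libraries ranked.

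The members varied by unequal amounts. The ratio of the highest to the lowest library ran from 1.17 to 5.60 in FPKM, with a median of 1.97. For each log2 unit of ASPN a member moved by 0.16 to 1.33 log2 units, with a median of 0.58, and 14 members moved by more than ASPN itself. Mean levels ran from 5.03 to 83.4 FPKM with a median of 15.0 FPKM, against a median of 17.1 FPKM over the ranked transcripts. Between 50 and 100 FPKM lay 6.67% of the members and 13.0% of the ranked transcripts. Over the 11175 pairs of members, the pairwise correlation was 0.747 to 0.9998 with a median of 0.928. High pairwise values were fixed by the rule, since every member had r of 0.931 or higher with ASPN in the same libraries. All members together made up 0.530%, 0.474% and 0.410% of the summed FPKM of the high libraries, against 0.356%, 0.546% and 0.679% of that of the low ones.

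Highest in correlation was XM_005013848.2, with r = 0.996, at 35.3, 32.7 and 31.0 FPKM in high and 27.3, 33.5 and 40.3 FPKM in low ovaries. XM_013097790.1, with r = 0.995, was at 16.3, 14.6 and 11.9 FPKM in high and 8.80, 14.8 and 23.1 FPKM in low ovaries. The next were XM_013093912.1, XM_005014174.2 and XM_013106370.1, with r of 0.993, 0.993 and 0.992. None of these 5 could be paired with a gene name. At the edge of the list XM_013095923.1 and XM_013100147.1 were the last inside, with r = 0.9316 and 0.9310, and XM_013101940.1 and XM_013098826.1 the first outside, with r = 0.9310 and 0.9308. Another 121 ranked transcripts outside the list had r above 0.9, so the list ends within a run of close values.

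**Figure D2:**
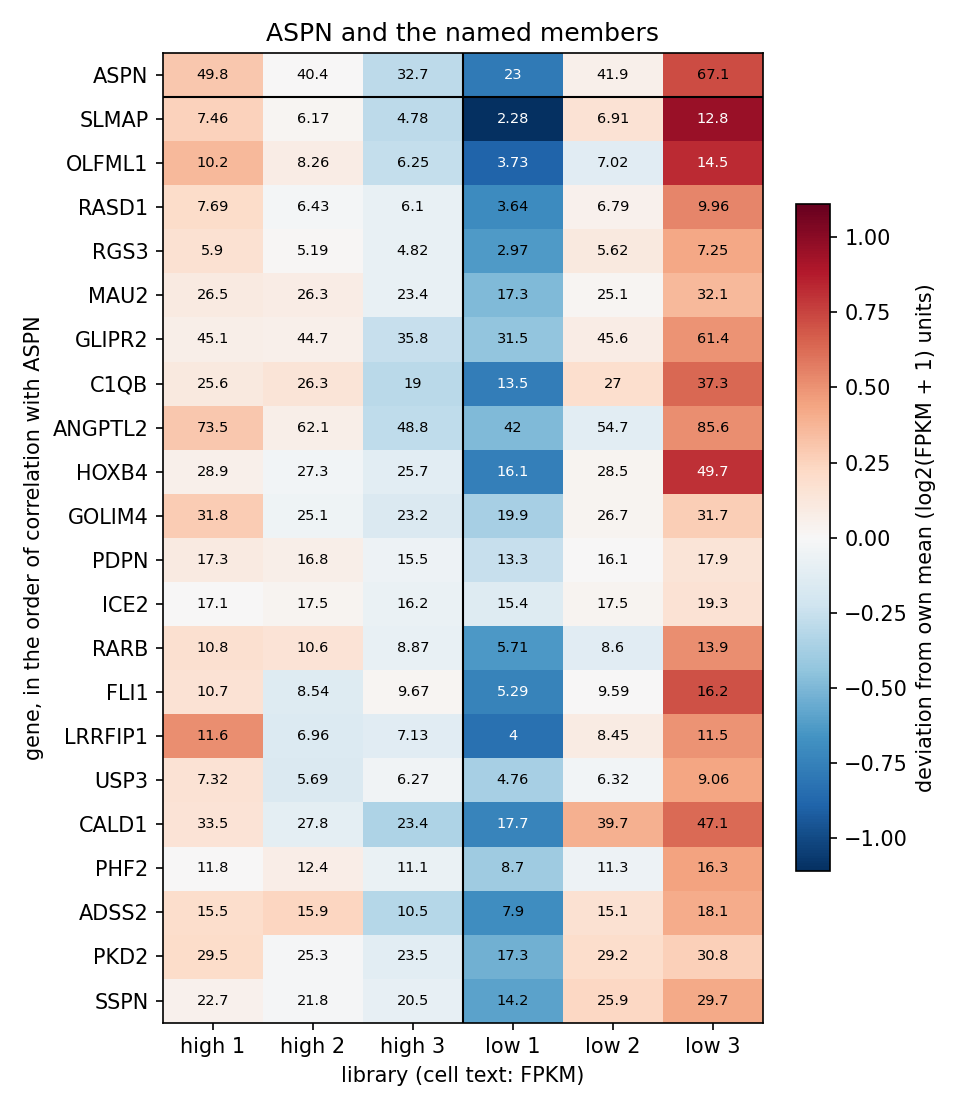
Rows are ASPN and the 21 members with a gene symbol, in the order of their correlation with ASPN; columns are the 3 high and then the 3 low libraries. Colour is the deviation from the row's own mean in log2(FPKM + 1) units, and the text in each cell is FPKM. The low 1 column is blue in every row, and low 3 is red in every row.

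Secreted and surface proteins are given first among the named members. OLFML1, which encodes a secreted olfactomedin-like protein, stood at 10.2, 8.26 and 6.25 FPKM in high and at 3.73, 7.02 and 14.5 FPKM in low ovaries (XM_005013980.2, r = 0.987). ANGPTL2, a secreted angiopoietin-like protein, was the most abundant named member, at 73.5, 62.1 and 48.8 FPKM in high and 42.0, 54.7 and 85.6 FPKM in low ovaries (XM_005023985.1, r = 0.967). Low 1 was lowest and low 3 highest for both. PDPN, podoplanin, a membrane glycoprotein of fibroblastic and lymphatic cells, was at 17.3, 16.8 and 15.5 FPKM in high and 13.3, 16.1 and 17.9 FPKM in low ovaries (XM_013101242.1, r = 0.952). Its libraries lay close together, with a span of 0.40 on the log2(FPKM + 1) scale against 1.503 for ASPN. C1QB, a chain of the complement component C1q that macrophages make, was at 25.6, 26.3 and 19.0 FPKM in high and 13.5, 27.0 and 37.3 FPKM in low ovaries (XM_005014988.2, r = 0.969).

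Among genes of the cytoskeleton and the membrane-linked complexes, SLMAP, a tail-anchored membrane protein found in a phosphatase complex, had the highest correlation of all named members and the widest span of all 150. It stood at 7.46, 6.17 and 4.78 FPKM in high and 2.28, 6.91 and 12.8 FPKM in low ovaries (XM_013105990.1, r = 0.991), a span of 2.07 on the log2(FPKM + 1) scale. CALD1, the actin-binding protein caldesmon of smooth muscle and other contractile cells, was at 33.5, 27.8 and 23.4 FPKM in high and 17.7, 39.7 and 47.1 FPKM in low ovaries (XM_005017090.2, r = 0.937). In CALD1, low 2 was the second highest library, above all 3 high ones. SSPN, sarcospan of the dystrophin complex, was at 22.7, 21.8 and 20.5 FPKM in high and 14.2, 25.9 and 29.7 FPKM in low ovaries, and shared that order (XM_005022984.2, r = 0.932). LRRFIP1, which binds the actin regulator flightless, ranged from 6.96 to 11.6 FPKM in high and from 4.00 to 11.5 FPKM in low ovaries, and it was highest in high 1. PKD2, the cation channel polycystin-2, ranged from 23.5 to 29.5 and from 17.3 to 30.8 FPKM in the same order of groups.

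Signalling genes included both a small G protein and a regulator of G proteins. RASD1, a Ras-related protein induced by glucocorticoid in mammals, was at 7.69, 6.43 and 6.10 FPKM in high and 3.64, 6.79 and 9.96 FPKM in low ovaries (XM_005011225.2, r = 0.982). RGS3, which speeds the switching off of G-protein subunits, was at 5.90, 5.19 and 4.82 FPKM in high and 2.97, 5.62 and 7.25 FPKM in low ovaries (XM_005022339.2, r = 0.972). For both genes the high libraries lay between the outer low ones. The Golgi genes GLIPR2 and GOLIM4 had r of 0.971 and 0.958, with GLIPR2 at 35.8 to 45.1 FPKM in high and 31.5 to 61.4 FPKM in low ovaries, and GOLIM4 at 23.2 to 31.8 and 19.9 to 31.7 FPKM. ADSS2, an enzyme of purine synthesis, was at 10.5 to 15.9 FPKM in high and 7.90 to 18.1 FPKM in low ovaries.

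Transcription factors and chromatin genes made up the remaining named members. HOXB4, a homeobox gene, was at 28.9, 27.3 and 25.7 FPKM in high and 16.1, 28.5 and 49.7 FPKM in low ovaries (XM_005026168.2, r = 0.960). RARB, a receptor for retinoic acid, was at 10.8, 10.6 and 8.87 FPKM in high and 5.71, 8.60 and 13.9 FPKM in low ovaries (XM_005029250.2, r = 0.950). FLI1, an ETS-family factor of endothelial and blood cells, was at 10.7, 8.54 and 9.67 FPKM in high and 5.29, 9.59 and 16.2 FPKM in low ovaries (XM_005019656.2, r = 0.945). HOXB4 and FLI1 stood highest in low 3, while their other libraries, apart from low 1, lay within 25.7 to 28.9 and 8.54 to 10.7 FPKM. MAU2, which helps to load cohesin on DNA, had r = 0.972, and its range was 23.4 to 26.5 FPKM in high and 17.3 to 32.1 FPKM in low ovaries. The histone demethylase gene PHF2, the deubiquitinase gene USP3 and ICE2, a subunit of the little elongation complex, had r of 0.936, 0.938 and 0.952. PHF2 ranged from 11.1 to 12.4 FPKM in high and from 8.70 to 16.3 FPKM in low ovaries, and USP3 from 5.69 to 7.32 and from 4.76 to 9.06 FPKM. ICE2 had the flattest profile of the named members, from 15.4 to 19.3 FPKM, both in low ovaries.

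Other transcripts of the same genes were outside the list, so those that were ranked have a lower correlation by the rule. For 7 of the 21 named genes the tables held 18 further transcripts, 0 of them members, and 15 of these averaged 1 FPKM or more. Their correlation with ASPN ran from -0.520 to 0.893 with a median of 0.578, and was above 0 for 13. The next transcript of C1QB, XM_005014987.2, had r = 0.893, at 18.9, 17.3 and 16.2 FPKM in high and 8.71, 19.2 and 21.0 FPKM in low ovaries. CALD1 had 7 further transcripts, and the one tracking ASPN held 16.7% of their joint FPKM. The most abundant, XM_013097140.1, had r = 0.837, and XM_013097139.1 had r = -0.520, with its lowest value, 5.99 FPKM, in low 3. Of the joint FPKM of USP3 and FLI1 the members held 38.2% and 36.0%, and for SLMAP 91.0%. The most abundant transcripts of USP3 and FLI1 were not members and had r of 0.357 and 0.636. How reads shared between transcripts of a gene were assigned is not known here, since the quantifier was not given. If they were divided by estimation, values of single transcripts are less certain than those of their gene. Summed over its transcripts, C1QB was at 44.5, 43.6 and 35.2 FPKM in high and 22.2, 46.2 and 58.3 FPKM in low ovaries, and PDPN at 50.9, 35.3 and 33.6 FPKM in high and 29.9, 38.5 and 43.1 FPKM in low ovaries. Low 3 was the highest library for the C1QB sum and high 1 for the PDPN sum.

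In gene order on the Pekin duck assembly of the reference table, ASPN lies beside OMD and OGN, genes of the same proteoglycan family, and next to ECM2 on its other side. OGN, osteoglycin, was too abundant for the list, at 420.7, 585 and 208 FPKM in high and 254, 349 and 455 FPKM in low ovaries, and its correlation with ASPN was 0.659. OMD, osteomodulin, was at 0.325 FPKM on average, below the limit of the rule. CENPP, beyond ECM2, was at 13.2 FPKM on average and had r = -0.768. No named member lay within the 6 protein-coding genes on either side of ASPN. Most of these neighbours had no transcript that could be paired with them, and most members have no name. The absence therefore says little about gene position. The closest named members to each other were ICE2 and USP3, with 9 protein-coding genes between them.

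The label was set against markers of stromal fibroblasts. Apart from ASPN, 6 transcripts of 4 stromal fibroblast markers were ranked, and 1 of them, PDPN, was a member. The others were PDGFRA, a receptor of fibroblasts for platelet-derived growth factor, with r = 0.849 and -0.016 for its transcripts, LUM (lumican) with r = 0.686, DPT (dermatopontin) with r = 0.605 and the other PDPN transcript with r = 0.750. DCN (decorin), above the window at 753, 648 and 572 FPKM in high and 403, 598 and 580 FPKM in low ovaries, had r = 0.697. With the most abundant transcript of DCN, LUM, DPT or PDGFRA in the place of ASPN, the 150 highest transcripts shared 0, 1, 0 and 17 with the list. For PDGFRA this was the transcript with r = 0.849. All 150 members had r above 0 with each of these 4 transcripts, with medians of 0.666, 0.636, 0.564 and 0.806 in the same order of genes. Values above 0 were fixed by the choice of the members, since these 4 transcripts also correlate with ASPN in the same libraries. Of the 20 genes of the fibroblast list 7 had a symbol, ASPN among them. The list held 6 of the 1225 ranked transcripts with a symbol and 1 of the 21 named members. Of all ranked transcripts 1.49% are members, and a list of 6 says little at that share. The members are therefore called here only by their correlation with ASPN.

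Markers of several other cell types also had r above 0 with ASPN, and their part in the list was not tested. All 9 ranked leukocyte transcripts had r above 0, with a median of 0.732. Of these 9, 1 was a member, C1QB, where 1.49% of all ranked transcripts are. A list of 9 says little at that share. RAC2, a GTPase of blood cells, had r = 0.877, at 59.6, 62.5 and 46.9 FPKM in high and 24.2, 39.7 and 71.8 FPKM in low ovaries. Sums of a list cover all its transcripts, ranked or not, so they are not sums of the correlated transcripts alone. They also cover only the genes with a symbol. These were 11 of 27 leukocyte, 5 of 20 endothelial, 4 of 18 smooth muscle and pericyte and 7 of 20 stromal genes. All 21 leukocyte transcripts summed to 1756, 733 and 573 FPKM in high and 278, 564 and 653 FPKM in low libraries. The top of the high range was thus the value of high 1 alone. For endothelial markers 4 of 5 were above 0, with a median r of 0.467. PECAM1 had r of 0.833, 0.467 and 0.416 for its transcripts, and TEK had r = -0.292. The highest was VWF, von Willebrand factor, just outside the list with r = 0.928. VWF was at 62.6, 62.8 and 53.0 FPKM in high and 40.7, 56.4 and 66.7 FPKM in low ovaries. Summed endothelial transcripts ran from 144 to 179 FPKM in high and from 107 to 151 FPKM in low libraries. Ranked smooth muscle and pericyte markers were above 0 for 4 of 4, with a median r of 0.614. All 19 transcripts of that list summed to 1567 to 2006 FPKM in high and 1295 to 2779 FPKM in low libraries. Stromal fibroblast markers, with ASPN among them, summed to 1032 to 1550 FPKM in high and 810 to 1354 FPKM in low libraries. In high 1, which had the 1550 FPKM, DCN alone stood at 753 and OGN at 421 FPKM, so the stromal sum rests largely on them. In each of these 4 lists low 1 had the lowest sum. Low 3 had the highest sum for smooth muscle and pericyte markers only, and high 1 had it for leukocyte, endothelial and stromal markers. In these lists 0 of the transcripts were at 0 in every library.

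Oocyte and most granulosa markers went the other way. All 7 ranked oocyte and germ cell transcripts had r below 0, with a median of -0.840 and a highest value of -0.206. All 4 ranked granulosa transcripts did too, with a median of -0.709, but FSHR had r of only -0.017. Theca and interstitial markers had 1 ranked transcript, SRD5A1, with r = -0.966. Surface epithelium and oviduct markers also had 1, ESRP1, with r = -0.933. A single transcript says little about its cell type. H1-8, the linker histone of oocytes, had r = -0.859, at 35.7, 40.4 and 38.3 FPKM in high and 46.4, 37.9 and 20.3 FPKM in low ovaries. GJA1, the gap junction protein connexin 43, had r = -0.868, at 99.4, 89.9 and 103 FPKM in high and 126, 78.8 and 69.7 FPKM in low ovaries. For both, low 1 was the highest and low 3 the lowest library, the reverse of ASPN. Sums again cover all transcripts of a list, ranked or not, and only the genes with a symbol, 10 of 22 oocyte and 5 of 16 granulosa genes. Oocyte sums ran from 814 to 1080 FPKM in high and from 487 to 1304 FPKM in low libraries. Granulosa sums ran from 166 to 201 and from 133 to 226 FPKM in the same order of groups. Over all ranked transcripts the median correlation with ASPN was -0.224, and 42.0% were above 0. Strong correlations were more common below 0: 341 transcripts had r of -0.931 or lower, where the list holds the 150 with r of 0.931 or higher.

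**Figure D3:**
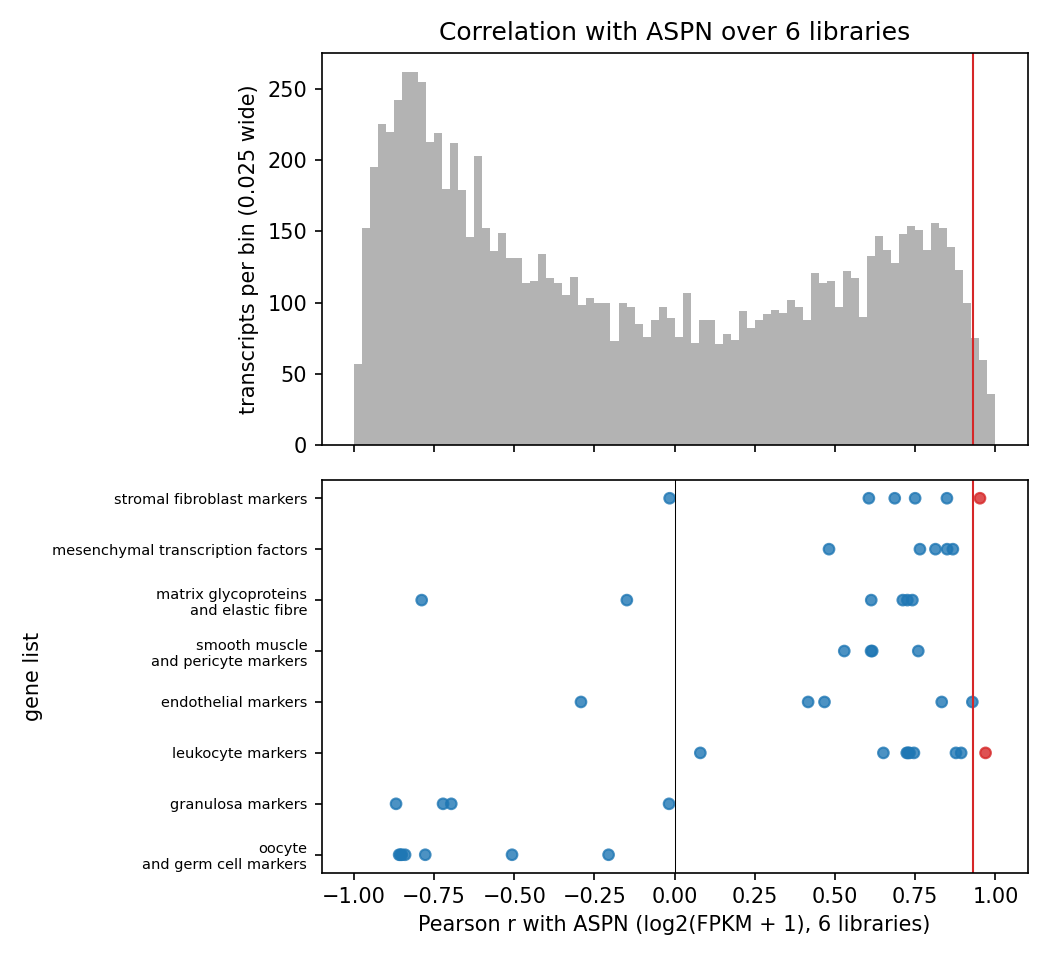
The upper panel counts the 10081 ranked transcripts by their Pearson correlation with ASPN over 6 libraries, in bins 0.025 wide. The lower panel shows the ranked transcripts of 8 gene lists as points, with members in red and others in blue. The red line marks the last member, at 0.931; leukocyte points lie above 0 and oocyte and granulosa points below 0.

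Other gene lists of the matrix and its signalling are given by their correlations. For matrix glycoproteins and elastic fibre 4 of 6 ranked transcripts had r above 0, with POSTN (periostin) at 0.613 to 0.725 in 3 transcripts and FBLN5 (fibulin 5) at -0.149 and -0.789 in 2. Mesenchymal transcription factors were above 0 for 5 of 5, with a median of 0.813; ZEB2, a repressor of epithelial genes, had r = 0.867 and TWIST2 r = 0.849. Among genes of TGF-beta and BMP signalling 3 of 7 were above 0, and NOG, the BMP antagonist noggin, had r = -0.928. For collagen synthesis and crosslinking 2 of 3 were above 0, with a median of 0.024 and a lowest r of -0.518. Matrix proteases and inhibitors were above 0 for 2 of 3, with a median of 0.604, and PLAU had r = -0.819. In PDGF, FGF and IGF signalling 3 of 5 were above 0, with a median of 0.608, and IGFBP2 had r = -0.872. Wnt and hedgehog genes were above 0 for 2 of 2, with a median of 0.769. In the matrix glycoprotein, mesenchymal factor and TGF-beta and BMP lists 0 of 6, 5 and 7 ranked transcripts were members, where 1.49% of all ranked transcripts are, and 0 of 16, 9 and 9 tested transcripts passed the test between high and low ovaries, where 0.00505% of all tested did. Lists this short say nothing at those shares. COL6A1 and COL6A2, chains of collagen VI, were too abundant for the rule and had r of 0.672 and 0.762. COL10A1, the other of the 3 tested collagen transcripts, averaged 3.59 FPKM, below the window of the rule, and had r = -0.895. It was at 7.76 FPKM in low 1 and 0.441 FPKM in low 3, the reverse of ASPN.

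No member passed the test between high and low ovaries. In a limma-trend fit over the 19790 transcripts that reached 1 FPKM in 3 or more libraries, 0 of the 150 members passed a Benjamini-Hochberg adjusted p of 0.05, against 1 transcript, or 0.00505%, of all tested. At an unadjusted p under 0.05 there were 0 members, against 3.51% of all tested, and 0 members had groups that did not overlap, against 8.54%. Since the members were chosen to follow ASPN in the same libraries, these counts describe the choice. The high minus low difference of the members ran from -0.30 to 0.23 log2 units with a median of -0.0096, above 0 for 67 and below 0 for 83. Over all tested transcripts the median was -0.0028 and 49.5% were above 0. For ASPN it was 0.0066 (SE 0.36), with means of 41.0 ± 8.55 FPKM in high and 44.0 ± 22.1 FPKM in low ovaries (SD, n = 3 each). The difference compares means of log2 values, so its sign can differ from that of the FPKM means, as it did for ASPN. For SLMAP the difference was -0.0094 (SE 0.49), for RARB 0.17 (SE 0.30) and for CALD1 -0.20 (SE 0.35), none larger than its standard error.

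The sign of the high minus low difference changed with the libraries in the fit. The members were chosen to follow ASPN, and low 1 was the lowest library for all 150 and low 3 the highest for 147. The shifts without these libraries follow from that choice and are given as a description. Without low 1, all 150 members had a high minus low difference below 0, with a median of -0.23 and a range of -0.77 to -0.025. Without low 3, all 150 differences were above 0, with a median of 0.19 and a range of 0.022 to 0.60. Over all tested transcripts the medians were 0.014 and -0.041 in these fits. Without high 1 the median of the members was -0.072, with 29 above 0 and 121 below, and without high 3 it was 0.073, with 117 above 0 and 33 below. The difference of ASPN was -0.38 without low 1, 0.37 without low 3, -0.14 without high 1 and 0.15 without high 3. Without low 1, 0 members passed the threshold, against 0.0101% of all tested (smallest limma adjusted p of a member 0.466), and 7 had an unadjusted p under 0.05, against 9.7% of all tested. Without low 3, 0 members passed, against 0.0152% (smallest limma adjusted p 0.676), and 1 had an unadjusted p under 0.05, against 7.36%. The spread within groups was unequal for every member: the standard deviation on the log2 scale was higher in low than in high libraries for 150 of 150, with medians of 0.17 in high and 0.46 in low libraries. Among all ranked transcripts it was higher in low libraries for 69.6%, with medians of 0.18 and 0.29 in the same order of groups. The members were chosen to follow ASPN, whose standard deviation was 0.30 in high and 0.75 in low libraries. Their wider spread in the low group follows largely from that choice and is a description.

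**Figure D4:**
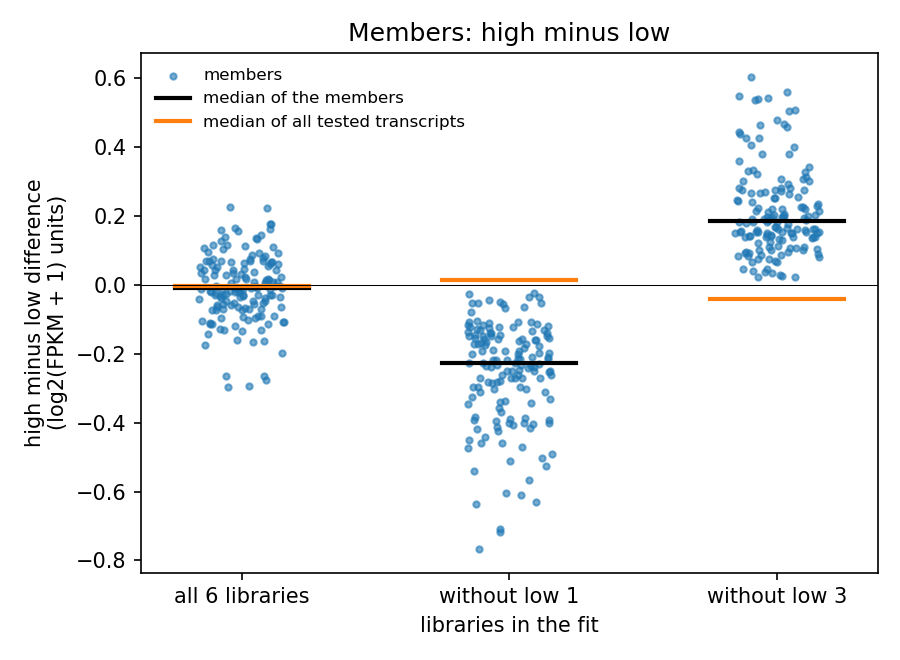
Each point is 1 of the 150 members, placed by its high minus low difference in log2(FPKM + 1) units in the fit of all 6 libraries, without low 1 and without low 3. Black lines are the median of the members and orange lines that of all tested transcripts; sideways scatter of the points carries no value. Members lie on both sides of 0 with all libraries, all below 0 without low 1 and all above 0 without low 3.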

How the data were processed

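Ovary RNA was made into stranded mRNA libraries, per the labels' protocols, and Bowtie2 2.0.6 and TopHat2 2.0.9 were used, per the submitters' processing notes; the quantifier, build and annotation were not given in the sources used here. Deposited tables name no unit. Their values are fractional and sum to different totals, so they were read as FPKM made by the authors. Read depth is unknown, and precision rests on the 3 libraries per group. Nothing in the labels ties each library to its own duck; p-values therefore measure only the spread between libraries, which may be technical. Libraries were numbered within groups in the order of the sample records.

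Values were used as log2(FPKM + 1). High and low libraries were compared with limma-trend (limma 3.58.1, R 4.3.3; checked on simulated data), two-sided, with group as the only term and p-values adjusted over all tested transcripts. Fold changes on this scale understate those of low transcripts. Gene names were taken from RefSeq's gene table for the IASCAAS Pekin duck assembly, matched by accession without its version for 4636 transcripts (11.1%). The text names ASPN, every member with a symbol, the 5 highest correlations and the edge of the list; genes outside the list were chosen after their values were seen. The members and the 22 gene lists were chosen with earlier results of these data known. Alternatives were the pseudocount, the filter, scaling, the variance model, left-out libraries and other forms of the ranking. No sequence was used here.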

Additional observations from a re-analysis of the deposited data

How the results depend on the processing

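The list depended on the libraries more than on the scale. With a library left out in turn, 68 (without low 1) to 103 (without low 2) of the 150 members were again among the 150 highest, and 46 were so in all 6 of these lists, with SLMAP, OLFML1, RASD1, RGS3, MAU2 and GLIPR2 as the named ones. Without low 1 and low 3 together, a setting added after the data were seen, 23 were kept. With other stromal anchors 0 (DCN), 1 (LUM), 0 (DPT) and 17 (PDGFRA) were kept. Quantile normalization kept 111, a window of 2 to 500 FPKM 116, median centring 135, inclusion of non-coding (XR) rows 143 and pseudocounts of 0.1 and 0.01 149 and 148. Spearman correlation kept 107, but its ties were broken by the Pearson order. The last value in that list and the median of the members were both 0.943, so the ties favoured members and 107 is no independent count.

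Between high and low ovaries the number of members called by limma was 0 in every setting run. The number of all transcripts called was 1 in the comparison as reported, 0 with a pseudocount of 0.01 and 0 without a filter on low values, and 1 to 3 with a library left out; the cause was not tested. The median difference of the members was -0.23 to 0.19 with a library left out, and 0.032 with median centring, where 101 members were above 0. All 264 values of ASPN and the 21 named members under other settings stayed within 1 SD between replicates of the value reported. For left-out libraries this outcome was fixed in advance, since dropping 1 of 3 libraries cannot move a difference by 1 such SD. It is therefore no sign of stability. The ASPN difference went from 0.0066 to -0.38 without low 1 and to 0.37 without low 3. No paired analysis was possible because the labels give the groups no shared replicate numbers. Depth is unknown, so no counting error is given for single values.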
